A study of Mus musculus with 8 samples.

Results

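The distal part of mouse chromosome 5 was followed gene by gene in 8 mammary tumors. Members were the genes on chromosome 5 with a start of at least 100000000 (mm9) and a mean of at least 1 TPM over all tumors, leaving out a few gene families and single genes by symbol. TPM scales each gene for its length and each tumor to a common total, so it states an abundance relative to the other genes of that tumor. Of 709 distal rows in the deposited table, 203 were below the TPM minimum and 30 were left out by symbol, so 476 genes remained out of 14835 that passed the same minimum over the whole table. They run from Hnrnpd, which starts at 100387445, to Rfc3, which starts at 152445331, and 459 of them are protein coding. The region was picked because earlier results from these same tumors showed its genes at unusual levels in some of them, so the levels in the 8 tumors and the differences between genotypes are given here as a description and support nothing.

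The control group, tumors 1 to 4, has the genotype Brca1f/f Trp53+/-, and the HMMR-Tg group, tumors 5 to 8, has the genotype HMMR Tg/Tg Brca1f/f Trp53+/-, with 4 tumors each. All of the mice carried Blg-Cre, a recombinase driven by the β-lactoglobulin promoter and active in lactating mammary epithelium, which removes the floxed Brca1 exons, and all had a single intact Trp53 allele. In the HMMR-Tg mice the same recombinase switches on a human HMMR cDNA placed at Rosa26. The mice were parous and of mixed background, the average time from induction to diagnosis was close between the genotypes by the study's account, and the tumors were frozen and measured as bulk tissue without added treatment. The labels do not say whether every tumor came from its own mouse, so any p-value measures only the spread between these tumors. In bulk tissue, fewer cells that express a gene and less RNA per cell cannot be told apart.

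Genes that lie next to each other on a chromosome mostly serve unrelated tasks, and distal chromosome 5 is an example. It holds subunits of the machines that copy DNA (Mcm7, Rfc2, Rfc3, Rfc5), of the ubiquitin ligase that drives exit from mitosis (Anapc5, Anapc7), of the Arp2/3 complex that nucleates branched actin (Arpc1a, Arpc1b, Arpc3), metabolic enzymes of the mitochondrion, translation factors and the mouse counterpart of the block deleted in human Williams-Beuren syndrome. BRCA1 acts in the repair of broken DNA by homologous recombination, and tumors that lack it are known for unstable genomes. Only RNA was measured here.

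The promoters below belong to members that mark where the level of the region stepped in a tumor, as described further on. Each sequence is the 200 bases before the annotated start of the gene (GENCODE M1, mm9), written 5′ to 3′ on the strand of the gene. Capitals mark motifs searched on both strands, and the marked motifs share no bases in these windows. The GC box was searched as GGGCGG. The second motif, the CCAAT box, is spelled by its name. The TATA box was searched as TATAAA. The windows are chr5:105948207-105948406 for Lrrc8c, chr5:106305384-106305583 for Zfp326, chr5:108890051-108890250 for Pcgf3 and chr5:118426579-118426778 for Fbxo21, all on the plus strand.
Lrrc8c: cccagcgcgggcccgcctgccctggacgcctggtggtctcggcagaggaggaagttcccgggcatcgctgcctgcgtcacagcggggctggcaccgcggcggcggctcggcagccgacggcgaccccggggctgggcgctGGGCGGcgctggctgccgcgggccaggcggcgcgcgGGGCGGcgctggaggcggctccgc
Zfp326: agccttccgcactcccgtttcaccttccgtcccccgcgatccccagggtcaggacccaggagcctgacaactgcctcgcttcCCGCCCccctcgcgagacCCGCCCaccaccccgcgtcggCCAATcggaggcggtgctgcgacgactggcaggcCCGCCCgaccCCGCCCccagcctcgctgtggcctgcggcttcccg
Pcgf3: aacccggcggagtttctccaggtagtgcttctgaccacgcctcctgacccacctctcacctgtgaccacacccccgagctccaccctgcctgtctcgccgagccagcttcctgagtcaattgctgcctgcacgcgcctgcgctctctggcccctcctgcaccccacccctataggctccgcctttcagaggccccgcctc
Fbxo21: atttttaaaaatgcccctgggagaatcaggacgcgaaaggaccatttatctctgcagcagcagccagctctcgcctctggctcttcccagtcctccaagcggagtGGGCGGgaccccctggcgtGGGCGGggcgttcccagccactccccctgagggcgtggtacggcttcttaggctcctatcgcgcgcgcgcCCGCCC

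Lrrc8c encodes a subunit of a volume-regulated anion channel, Zfp326 a zinc finger protein, Pcgf3 a Polycomb group RING finger protein and Fbxo21 an F-box protein of a ubiquitin ligase. The windows differ in composition, from 82% G and C in Lrrc8c to 64.5% in Fbxo21, and only Zfp326 holds both a GC box and a CCAAT box. Over all 476 members, 258 promoters (54.2%) held a GC box, 135 (28.4%) a CCAAT box and 17 (3.57%) a TATA box. The shares among the 13921 promoters of all tested genes with a nuclear position were 50.1%, 31.1% and 5.95%, and among the 369 genes of the rest of chromosome 5 they were 53.7%, 27.4% and 7.05%. The median G and C content was 61.8% for the members and 59% for all genes. A match to these letters is a description of the window and not a binding site.

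The region stood high in 2 control tumors and low in 2 HMMR-Tg tumors. For each gene and tumor, the deviation is log2(TPM + 1) minus the mean of that gene over the other 7 tumors, a scale that understates changes of genes near 0. Each tumor is part of the reference of the others, so a high tumor lowers their deviations and a low tumor raises them. The median deviation of the 476 members was -0.01, 0.39, -0.07 and 0.79 in control tumors 1 to 4 and -0.13, -0.62, -0.30 and -0.01 in HMMR-Tg tumors 5 to 8. Tumors 2 and 4 were therefore the high ones, tumors 6 and 7 the low ones, and tumors 1, 3 and 8 lay within 0.07 of 0. The genotypes overlap in this measure, because tumor 8 was level with tumor 1 and above tumor 3. Over all 14835 tested genes the medians lay between -0.13 in tumor 6 and 0.11 in tumor 5, so tumor 6 was low by a smaller amount in general.

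**Figure D1:**
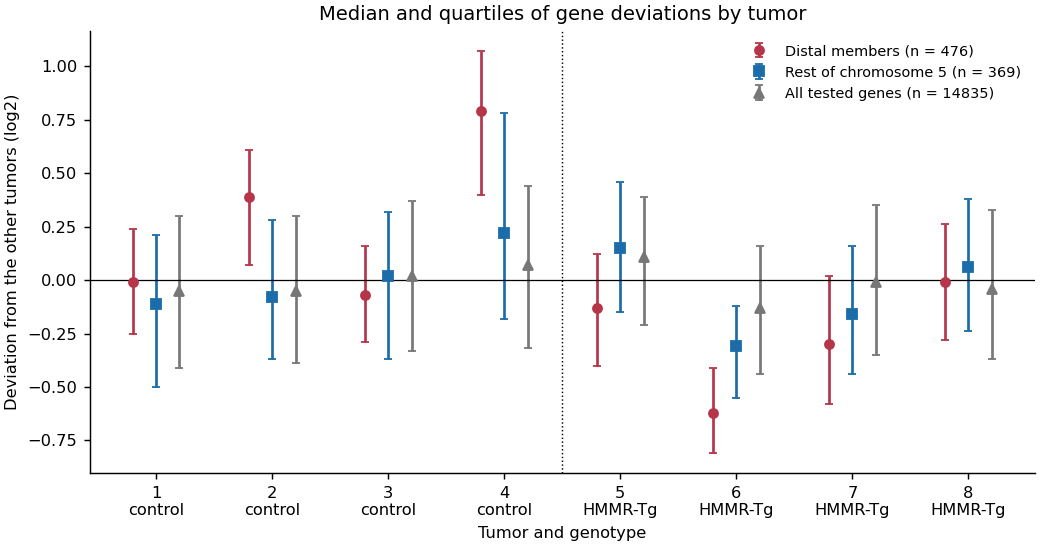
Median (points) and quartiles (bars) of the deviation from the other tumors, in log2 units, for each of the 8 tumors, shown for the 476 distal members, the 369 genes of the rest of chromosome 5 and all 14835 tested genes. The distal members sit at 0.79 in tumor 4 and at -0.62 in tumor 6, while all tested genes stay between -0.13 and 0.11.

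Most members shared the direction of their tumor. In tumor 4, 406 members (85.3%) were above the mean of the other tumors, against 55.5% of all tested genes. In tumor 2, 378 (79.4%) were, against 46.3%. In tumor 6, 442 members (92.9%) were below that mean, against 61.5% of all tested genes. In tumor 7, 353 (74.2%) were, against 51.2%. Tumor 4 was the highest of all 8 tumors for 299 members (62.8%, against 17.9% of all tested genes), and tumor 6 was the lowest for 237 (49.8%, against 14.9%). Both held at once for 162 members, and 259 members (54.4%) were above the others in tumors 2 and 4 and below them in tumors 6 and 7. No share over all genes was computed for these combinations. The shares of members restate the values by which the region was picked.

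On the linear TPM scale, the shift was seen in members of low and of high abundance. Among the 269 members with a mean of at least 20 TPM, the median ratio to the mean of the other tumors was 1.73 in tumor 4 (quartiles 1.38 and 2.06) and 1.28 in tumor 2 (1.07 and 1.44). It was 0.592 in tumor 6 (0.527 and 0.664) and 0.719 in tumor 7 (0.602 and 0.904), and between 0.871 and 0.962 in the remaining tumors. In the 63 members at 100 TPM or more, the ratios were 1.56, 1.27, 0.627 and 0.744 in tumors 4, 2, 6 and 7. In the 133 members between 5 and 20 TPM they were 1.76, 1.2, 0.586 and 0.811. In the 74 members between 1 and 5 TPM they were 1.32, 1.09, 0.572 and 0.676, with quartiles of 0.745 and 2.21 in tumor 4. The ratio of tumor 7 had no steady order over the classes.

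The shift did not begin at the same place in every tumor. Medians were taken in bins of 5 megabases (Mb) with at least 10 genes, and a run is a stretch of neighboring bins whose medians all lie at least 0.35 from 0 on the same side, a threshold set with the values known. Bins with fewer genes were passed over and not counted, so a run can bridge them. In control tumor 4 the run began at 65 Mb, well before the distal region, and covered 16 bins up to the end of the chromosome, with distal bin medians between 0.41 and 1.03. In control tumor 2 it began at 110 Mb and covered 9 bins, with medians of -0.19 at 100 to 105 Mb and 0.05 at 105 to 110 Mb before it and 0.43 in its first bin. HMMR-Tg tumor 6 had its run of low bins from 90 Mb to the end, 12 bins in all. That run bridged the bin at 95 to 100 Mb, whose 9 genes had a median of -0.31, short of the threshold. Without the bridge it began at 100 Mb, and the distal bin medians lay between -0.77 and -0.39. The longest run of HMMR-Tg tumor 7 was 3 low bins between 105 and 120 Mb, and single low bins lay at 125 to 130 Mb (-0.47) and 135 to 140 Mb (-0.35). HMMR-Tg tumor 5 was low in 2 bins between 125 and 135 Mb. Tumors 1, 3 and 8 had no distal run of more than 1 bin, although the last bin, with only 11 genes, was at -0.86 in tumor 1 and -0.49 in tumor 3.

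**Figure D2:**
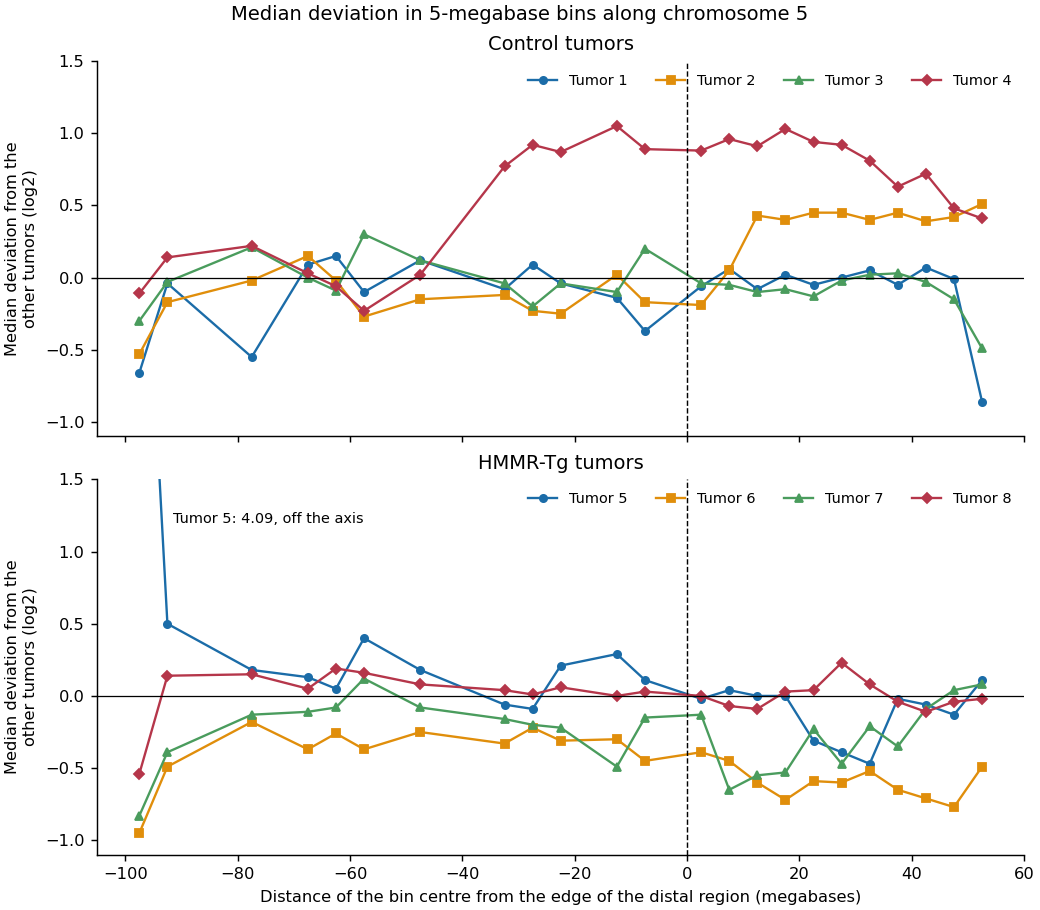
Median deviation from the other tumors (log2) in bins of 5 megabases along chromosome 5, against the distance of the bin centre from the edge of the distal region (dashed line), for bins with at least 10 genes, with control tumors above and HMMR-Tg tumors below. Tumor 4 is high from well before the edge, tumor 2 becomes high about 10 megabases past it, and the longest low run of tumor 7 covers 3 bins. The first bin of tumor 5, at 4.09, is off the axis.

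Fitting steps to the single genes in chromosome order placed these edges more finely. In tumor 2, the step lay between Pcgf3 at 108.9 Mb and Gak at 109.0 Mb. The 422 genes from Gak onward had a median deviation of 0.42, with 361 of them above the other tumors, and the 423 genes before had -0.09. Pcgf3 itself was at 25.3, 21.3, 29.1 and 65.2 TPM in control tumors 1 to 4 and at 30.3, 20.6, 15.5 and 23.2 TPM in HMMR-Tg tumors 5 to 8. Its level in tumor 2 was thus below that of the other control tumors. Gak, a kinase that uncoats clathrin vesicles, was at 81.6, 116, 68.9 and 158 TPM in control tumors and at 75.9, 54.2, 50.1 and 80.8 TPM in HMMR-Tg tumors. For Gak, tumor 2 was second only to tumor 4.

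The step of tumor 6 lay between the pseudogene Gm10196 and Zfp326, at 106.3 Mb. From Zfp326 to the end, 440 genes had a median of -0.64 and 412 of them were below the other tumors, while the 370 genes from 14.0 to 106.2 Mb had a median of -0.29. The step of tumor 7 lay close by, between Lrrc8b at 105.8 Mb and Lrrc8c at 105.9 Mb. Its low stretch ended after Pebp1 at 117.7 Mb, with a median of -0.59 over 110 genes, 99 of them below the other tumors. From Vsig10 onward the median in tumor 7 was -0.24. By the fitted steps, tumors 6 and 7 stepped within 1 Mb of each other, but only tumor 6 stayed as low to the end of the chromosome. This closeness depended on the method. The runs of bins described above began at 90 Mb in tumor 6 and at 105 Mb in tumor 7. With bins of 2.5 Mb the starts were 105 and 107.5 Mb, and with bins of 10 Mb they were 90 and 100 Mb. Whether the tumors share an edge was not tested.

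Genes at the edges did not all follow the stretch they belong to. Lrrc8c was at 6.51, 7.2, 19.7 and 5.66 TPM in control tumors and at 16.3, 6.72, 6.37 and 10 TPM in HMMR-Tg tumors. It was highest in tumors 3 and 5, and tumor 4, high for most members, had its lowest level. Zfp326 was at 32.4, 32.4, 44.1 and 63.2 TPM in control tumors and at 56.0, 26.9, 24.8 and 34.0 TPM in HMMR-Tg tumors, with tumors 6 and 7 the lowest. Pebp1, which encodes a phosphatidylethanolamine-binding inhibitor of RAF signaling, was at 524, 565, 422 and 808 TPM in control tumors and at 307, 335, 273 and 522 TPM in HMMR-Tg tumors. For Pebp1 the genotypes overlap only because tumor 8 exceeded tumor 3.

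The remaining steps were smaller. In tumor 5, the 157 genes from Fbxo21 at 118.4 Mb to Hip1 at 135.9 Mb had a median of -0.36, and 135 were below the other tumors, while the 172 genes from Rhbdd2 onward had -0.03. Fbxo21 was at 8.06, 11.6, 2.53 and 14.1 TPM in control tumors and at 1.5, 3.28, 8.60 and 7.74 TPM in HMMR-Tg tumors. It was lowest in tumor 5 and next lowest in tumor 3. In tumor 4, the 407 genes from Tlr6 at 65.3 Mb to Gtf2ird2 at 134.7 Mb had a median of 0.92, and the 196 genes from Ncf1 onward had 0.60. Gtf2ird2 and Ncf1 overlap on opposite strands in the annotation, and the strand setting of the counting is not given in the sources used here, so their reads may not be separated. Just outside the region, Antxr2, Prkg2 and A930011G23Rik deviated by -0.53, 1.88 and 0.26 in tumor 4 and by -0.60, -1.15 and -0.12 in tumor 6. Just inside it, Hnrnpd, Gm17092 and Hnrnpdl deviated by 0.88, 0.19 and 1.21 in tumor 4 and by -0.57, -0.53 and -0.70 in tumor 6. Around the TPM minimum, Vmn2r11 at a mean of 0.958 TPM deviated by -0.25 in tumor 4 and by -0.16 in tumor 6, and Tmem150c at 1.01 TPM by -0.02 and -0.52.

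The rest of chromosome 5 served as reference. Over its 369 genes, the median deviation was -0.11, -0.08, 0.02 and 0.22 in control tumors 1 to 4 and 0.15, -0.31, -0.16 and 0.06 in HMMR-Tg tumors 5 to 8. Tumor 6 thus kept the direction it had in the distal region at a lower level, and tumor 2 did not. In tumor 4 the median joined unlike parts. The 242 genes up to 65.3 Mb had a median of 0.05. From 65 to 95 Mb, the bins of 5 Mb with at least 10 genes had medians between 0.77 and 1.05. The reference therefore holds part of the high stretch of tumor 4. The mean of the medians over all 369 genes was 0.01 ± 0.15 (SD, n = 4) in control and -0.06 ± 0.21 (SD, n = 4) in HMMR-Tg tumors. The genotypes were thus -0.07 apart, which is within the spread of the tumors (two-sided exact permutation test, p = 0.571, smallest possible 0.0286). Tumor 5 had a separate high stretch at the start of the chromosome, with a median of 4.09 over the 14 genes of the first 5 Mb, which is not part of the distal region.

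Shifts of this size also occurred elsewhere in the genome. Of 390 bins of 5 Mb on other chromosomes, 5 lay at least as far from 0 in tumor 4 as its distal chromosome 5 median, and 14 did in tumor 6. For tumors 2 and 7, whose medians were closer to 0, the numbers were 86 and 83. Each bin holds far fewer genes than the 476 behind the distal median, so the measures are unlike. In tumor 4 the highest such bin was at chromosome 11, 20 to 25 Mb (median 0.88), and the lowest was at chromosome 9, 5 to 10 Mb (-1.16). The most extreme bin of any tumor off chromosome 5 was in tumor 5, at chromosome 6, 15 to 20 Mb (3.01). Whole chromosomes were shifted as well. The median deviation was -0.66 over the 446 genes of chromosome 16 in tumor 6 and -0.51 over the 336 genes of chromosome 18 in tumor 7. It was -0.42 over the 1172 genes of chromosome 2 in tumor 2. In tumor 4, no other whole chromosome lay farther from 0 than chromosome 19, at 0.34.

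Markers of other cell types moved between the tumors as well. The summed level of 10 skeletal muscle genes was 355, 67.9, 127 and 30.7 TPM in control tumors and 54.3, 447, 46 and 21.8 TPM in HMMR-Tg tumors, with Myh4 listed at 0 in at least 1 tumor. It was highest in tumors 1 and 6, whose median deviations over the distal members were -0.01 and -0.62. The 8 leukocyte genes summed to between 175 TPM in tumor 4 and 509 TPM in tumor 7, and the 6 endothelial genes to between 59.7 and 145 TPM. The 5 adipocyte genes summed to between 17.8 and 111 TPM, with Lep and Cidec listed at 0 in at least 1 tumor. The 7 mammary epithelial genes summed to between 1953 and 5558 TPM, and none was at 0. Without tumors 1 and 6, a choice made after the data were seen, the median difference between genotypes over the members was -0.46, and 30 members were lower at an unadjusted p under 0.05, compared with 88 over all tumors. No share over all genes was computed without tumors 1 and 6. The part of cell makeup in the result was not tested.

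Between genotypes, the members were lower in HMMR-Tg tumors by a small and broadly shared amount. The median difference, HMMR-Tg minus control on the log2 scale, was -0.47 over the members (quartiles -0.62 and -0.27), -0.09 over the rest of chromosome 5 and -0.01 over all genes. The mean was lower in HMMR-Tg tumors for 423 members (88.9%) and higher for 53, and this share was not computed over all genes. No member passed an adjusted p of 0.05 (limma with Benjamini-Hochberg adjustment over all 14835 genes), where 9 genes in all did (0.0607%). At an unadjusted p under 0.05, 88 members (18.5%) were lower in HMMR-Tg tumors, against 1.83% of all genes, and 0 were higher, against 1.62%. In 35 members (7.35%) all HMMR-Tg tumors lay below all control tumors, against 1.19% of all genes, and in 0 did all lie above, against 1.04%. The region was picked on this contrast, so nothing is read from these counts. They also rested on few tumors: without tumor 4, 25 members remained lower at an unadjusted p under 0.05, without tumor 6 there were 30, and without both tumors, chosen after the data were seen, there were 7, with a median difference of -0.21. Without tumor 2 there were 48, without tumor 7 there were 53 and without tumor 3 there were 133. The share over all genes was not computed with tumors left out, so these counts have no background beside them.

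The 10 members described first are those with the smallest unadjusted p among named members whose genotypes did not overlap. All 10 had an adjusted p of 1 (limma, Benjamini-Hochberg). Gtf2h3, a subunit of the transcription and repair factor TFIIH, was at 52.1, 55.2, 46.7 and 82.4 TPM in control tumors 1 to 4 and at 32.9, 26.2, 27.4 and 35.4 TPM in HMMR-Tg tumors 5 to 8. The lowest control value, in tumor 3, stood above the highest HMMR-Tg value, in tumor 8, and the log2 difference was -0.91 (SE 0.23). Sirt4, a mitochondrial sirtuin, was at 23.5, 27.4, 17.4 and 36.2 TPM in control and at 15.3, 11.7, 9.35 and 12.7 TPM in HMMR-Tg tumors. The log2 difference was -1.01 (SE 0.27). Iqce, a protein of the primary cilium, was at 28.5, 24.6, 24 and 33.5 TPM in control and at 18.7, 9.01, 9.98 and 16.3 TPM in HMMR-Tg tumors. The log2 difference was -1.03 (SE 0.28). In both Sirt4 and Iqce tumor 4 was highest, and tumors 6 and 7 were lowest.

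Rad9b and Pxmp2 had another order. Rad9b, a paralog of the checkpoint clamp subunit RAD9A, was at 16, 5.77, 7.28 and 5.88 TPM in control and at 3.26, 2.34, 2.73 and 3.98 TPM in HMMR-Tg tumors. Pxmp2, a peroxisomal membrane protein, was at 7.65, 3.62, 3.22 and 4.68 TPM in control and at 2.41, 1.78, 1.88 and 1.71 TPM in HMMR-Tg tumors. In both, tumor 1 and not tumor 4 was highest. Srrd was at 29.4, 33.7, 20.9 and 29.8 TPM in control and at 18, 12.8, 11.6 and 18 TPM in HMMR-Tg tumors, and Nudt1, which clears oxidized nucleotides, at 40.6, 44.8, 30.8 and 37.0 TPM and at 26.7, 18.5, 23.6 and 23.4 TPM. These were highest in tumor 2, and tumor 3 was the lowest control tumor in both.

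Of the other named members, Zfp932, a zinc finger gene whose family has near-identical copies that could share reads, was at 43.8, 57.5, 33.5 and 89.5 TPM in control and at 26.5, 24.5, 30.1 and 29.6 TPM in HMMR-Tg tumors. Nsun5, a methyltransferase that acts on ribosomal RNA, was at 29.4, 34.0, 25.4 and 37.9 TPM in control and at 18.2, 17.0, 17.4 and 22.2 TPM in HMMR-Tg tumors. Tmem184a, a transmembrane protein, was at 34.5, 31.5, 19.6 and 43.7 TPM in control and at 18.3, 14.7, 17.4 and 14.6 TPM in HMMR-Tg tumors. Tumor 4 was the highest and tumor 3 the lowest control tumor in all of these.

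**Figure D3:**
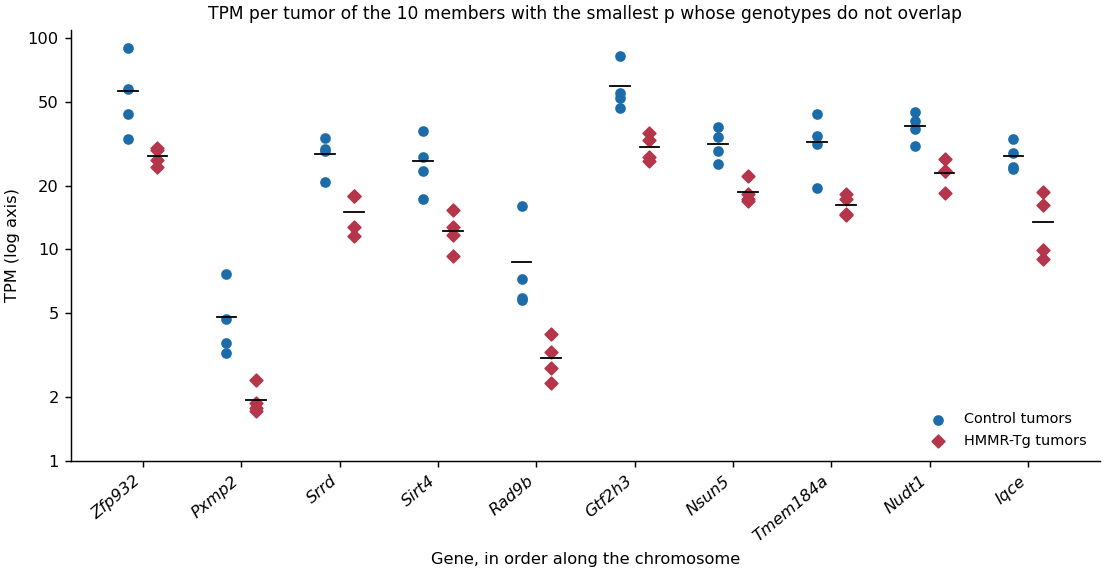
TPM on a log axis in every tumor for 10 members in chromosome order, with control tumors as circles, HMMR-Tg tumors as diamonds and the mean of each genotype as a bar. In each gene the 4 control tumors sit above the 4 HMMR-Tg tumors, as the choice of these genes requires, for example 46.7 to 82.4 against 26.2 to 35.4 TPM for Gtf2h3.

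Members were then grouped by what they do. The lists came from general knowledge, and for each the counts and medians are given as a description, beside a median of -0.47 for all members and -0.01 for all tested genes. At an unadjusted p under 0.05 (limma), 18.5% of all members were lower in HMMR-Tg tumors, against 1.83% of all genes. The mean was lower in HMMR-Tg tumors for 88.9% of all members. Of all members, 79.4% were above the other tumors in tumor 2, 85.3% above in tumor 4 and 92.9% below in tumor 6. Over all tested genes, these shares were 46.3%, 55.5% and 61.5%. In every list, 0 members passed an adjusted p of 0.05 (limma), and differences between lists were not tested. Some medians rested on single tumors. Without tumor 4, the median difference was -0.25 for chromatin and transcription, -0.30 for RNA processing and translation and -0.30 for protein folding, turnover and trafficking. Without tumor 6, it was -0.05 for actin cytoskeleton and adhesion and -0.31 for protein folding, turnover and trafficking.

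In the list of DNA replication and repair, all 18 members had a lower mean in HMMR-Tg tumors, with a median difference of -0.63, and 8 had an unadjusted p under 0.05. Tumor 2 was above and tumor 6 below the other tumors in 18 of 18, and tumor 4 above in 18 of 18. Mcm7, a subunit of the replicative helicase, was at 117, 179, 98.0 and 151 TPM in control and at 144, 62.0, 78.3 and 95.9 TPM in HMMR-Tg tumors. Rfc2, a subunit of the clamp loader, was at 141, 222, 142 and 188 TPM in control and at 123, 82.2, 103 and 135 TPM in HMMR-Tg tumors. For both genes tumor 2 exceeded tumor 4, the reverse of the regional medians, and only Rfc2 separated the genotypes. Kmt5a, which methylates histone H4, was at 97.7, 173, 168 and 257 TPM in control and at 104, 74.9, 101 and 174 TPM in HMMR-Tg tumors. Hmgb1, a DNA-bending chromatin protein, was at 407, 890, 413 and 673 TPM in control and at 557, 278, 651 and 657 TPM in HMMR-Tg tumors (log2 difference -0.15). Hmgb1 was not low in tumor 7, past the stretch where that tumor was lowest.

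Mitosis and ubiquitin ligase genes followed the same tumors. All 20 had a lower mean in HMMR-Tg tumors (median difference -0.55) and 3 had an unadjusted p under 0.05, with 20 of 20 above in tumor 4 and 20 of 20 below in tumor 6. Anapc5, a scaffold subunit of the anaphase-promoting complex, was at 242, 347, 179 and 371 TPM in control and at 150, 145, 185 and 217 TPM in HMMR-Tg tumors. Ran, the small GTPase of nuclear transport and spindle assembly, was at 209, 300, 275 and 518 TPM in control and at 208, 149, 167 and 325 TPM in HMMR-Tg tumors. Both genotypes overlap in these genes, through tumors 3, 7 and 8 for Anapc5 and through tumor 8 for Ran. Ppp1cc, a catalytic subunit of protein phosphatase 1, was at 279, 406, 206 and 467 TPM in control and at 197, 196, 195 and 292 TPM in HMMR-Tg tumors. Cdk2ap1, an inhibitor of CDK2, was at 269, 391, 263 and 572 TPM in control and at 205, 167, 161 and 544 TPM in HMMR-Tg tumors. In Cdk2ap1, tumor 8 was nearly as high as tumor 4.

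Of the 20 actin cytoskeleton and adhesion genes, 16 had a lower and 4 a higher mean in HMMR-Tg tumors, with a median difference of -0.25, and 3 had an unadjusted p under 0.05. All 20 were below the other tumors in tumor 6, but 5 of 20 were below them in tumor 4. Actb, which encodes β-actin, was at 2489, 4183, 4171 and 2683 TPM in control and at 3574, 2922, 4015 and 4491 TPM in HMMR-Tg tumors. It was low in tumor 1 and in tumor 4, opposite to the regional direction of the latter. Dynll1, a dynein light chain, was at 329, 545, 576 and 685 TPM in control and at 595, 445, 375 and 605 TPM in HMMR-Tg tumors (log2 difference -0.06). Neither gene separated the genotypes.

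Chromatin and transcription genes were lower on average in HMMR-Tg tumors in 22 of 23 members (median difference -0.48), and 3 had an unadjusted p under 0.05. The exception was Tbx3, with a difference of 0.73, which was named after its value was seen. Suds3, a subunit of the SIN3 histone deacetylase complex, was at 84.2, 143, 88.9 and 190 TPM in control and at 93.8, 64.4, 85.2 and 95.6 TPM in HMMR-Tg tumors. It was highest in tumor 4 and lowest in tumor 6. Polr2j, a subunit of RNA polymerase II, was at 116, 188, 125 and 188 TPM in control and at 120, 84.7, 87.5 and 121 TPM in HMMR-Tg tumors, where tumors 2 and 4 were level.

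Signaling genes were lower on average in HMMR-Tg tumors in 21 of 21 (median difference -0.51), and 3 had an unadjusted p under 0.05. Gnb2, a G protein β subunit, was at 500, 676, 497 and 679 TPM in control and at 465, 304, 385 and 504 TPM in HMMR-Tg tumors, and only tumor 8 reached the control range. Mapkapk5, a stress-activated kinase, was at 87.2, 123, 86.7 and 173 TPM in control and at 92.6, 58.6, 85.9 and 105 TPM in HMMR-Tg tumors. P2rx4, an ATP-gated ion channel, was at 129, 157, 86.4 and 133 TPM in control and at 83.6, 60.0, 123 and 81.4 TPM in HMMR-Tg tumors. Ywhag, a 14-3-3 adaptor protein, was at 109, 158, 206 and 190 TPM in control and at 171, 91.0, 74.8 and 187 TPM in HMMR-Tg tumors. The order of the tumors differed among these genes, and tumor 6 was the lowest in all but Ywhag.

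Mitochondrial and metabolic genes had 11 of 23 members at an unadjusted p under 0.05, all lower in HMMR-Tg tumors. Over all members that share was 18.5%, and the list was not tested against them. The median difference was -0.59, with 21 lower and 2 higher. Aldh2, the mitochondrial aldehyde dehydrogenase, was at 477, 351, 515 and 547 TPM in control and at 273, 270, 256 and 434 TPM in HMMR-Tg tumors. Tumors 5, 6 and 7 were close together and low, and tumor 8 lay within the control range. Mdh2, malate dehydrogenase of the citric acid cycle, was at 319, 349, 362 and 565 TPM in control and at 339, 251, 195 and 359 TPM in HMMR-Tg tumors. Atp5j2, a subunit of the ATP synthase, was at 392, 506, 276 and 377 TPM in control and at 255, 287, 286 and 351 TPM in HMMR-Tg tumors. In Atp5j2 tumor 2 was well above tumor 4, as in Mcm7 and Rfc2.

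In RNA processing and translation, 27 of 27 members had a lower mean in HMMR-Tg tumors (median difference -0.49), 6 had an unadjusted p under 0.05, and 27 of 27 were above in tumor 4 and below in tumor 6. Eif4h, a partner of the translation helicase eIF4A, was at 252, 319, 307 and 417 TPM in control and at 204, 191, 207 and 250 TPM in HMMR-Tg tumors. Srrt, which acts in the processing of short RNAs, was at 312, 298, 252 and 553 TPM in control and at 290, 178, 256 and 295 TPM in HMMR-Tg tumors. The genotypes separated in Eif4h, narrowly between tumors 1 and 8, and overlapped in Srrt. Hnrnpd and Hnrnpdl, RNA-binding proteins at the start of the region, lie before the step of tumor 2. Hnrnpd was at 359, 264, 385 and 637 TPM in control and at 458, 263, 340 and 388 TPM in HMMR-Tg tumors, and Hnrnpdl was at 239, 202, 246 and 495 TPM and at 221, 154, 209 and 236 TPM. Tumor 2 was the lowest control tumor in both, while tumor 4 was already the highest of all. An antisense transcript, Gm17092, lies within Hnrnpd, and its reads may not be separated.

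Protein folding, turnover and trafficking genes were lower on average in HMMR-Tg tumors in 22 of 25, with a median difference of -0.47 and 3 members at an unadjusted p under 0.05. Pomp, a proteasome assembly factor, was at 478, 539, 427 and 554 TPM in control and at 407, 306, 556 and 550 TPM in HMMR-Tg tumors. In Pomp, tumor 6 was low and tumor 7 was not. Erp29, a chaperone of the endoplasmic reticulum, was at 158, 225, 170 and 317 TPM in control and at 147, 118, 147 and 168 TPM in HMMR-Tg tumors, overlapping only between tumors 1 and 8.

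The Williams-Beuren block spans 135 Mb, where the low run of tumor 5 ended in bins of 5 Mb. By the fitted steps, the low stretch of tumor 5 ended later, after Hip1 at 135.9 Mb. The 21 members of the block had a median deviation of -0.40 in tumor 5, beside -0.13 for all members. In tumor 5, 18 of the 21 were below the other tumors. The median difference between genotypes was -0.45, with 16 lower and 5 higher on average and 5 at an unadjusted p under 0.05. Gtf2i, a general transcription factor and signaling protein, was at 108, 181, 86.6 and 186 TPM in control and at 69.1, 87.3, 110 and 119 TPM in HMMR-Tg tumors. Gtf2ird1, a relative of Gtf2i, was at 95.7, 107, 83.5 and 157 TPM in control and at 74.4, 70.1, 87.6 and 87.4 TPM in HMMR-Tg tumors. Tumor 5 was the lowest of all for Gtf2i and next to lowest for Gtf2ird1. Gtf2i, Gtf2ird1 and Gtf2ird2 resemble each other in sequence, so reads could be split among them.

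**Figure D4:**
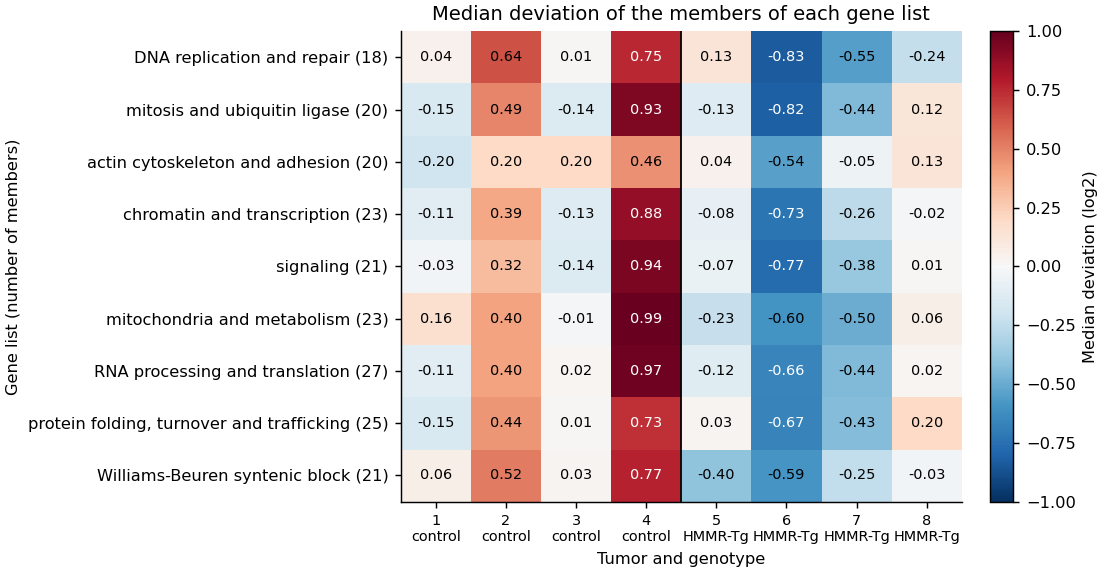
Median deviation from the other tumors (log2, color and number) of the members of 9 gene lists in each of the 8 tumors, with the number of members of each list in parentheses. Tumors 2 and 4 are above 0 and tumor 6 is below 0 in all 9 lists, and actin cytoskeleton and adhesion genes have the smallest values in tumors 4 and 6, 0.46 and -0.54.

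Complexes with subunits on several chromosomes allowed partners inside and outside the region to be set side by side. Of 46 subunits of 6 complexes, 11 are members and 35 lie elsewhere. In tumor 2 the members had a median deviation of 0.69, with 11 of 11 above the other tumors, and the partners elsewhere 0.00. In tumor 4 these values were 0.68 and 0.08, with 10 of 11 members above and Arpc1b, at -0.28, the exception. In tumor 6 they were -0.72 and -0.18, with 11 of 11 members below. In tumor 7 they were -0.26 and -0.22. All 11 members here start past Pebp1, where the lowest stretch of tumor 7 ended, so this comparison could not show that stretch.

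**Figure D5:**
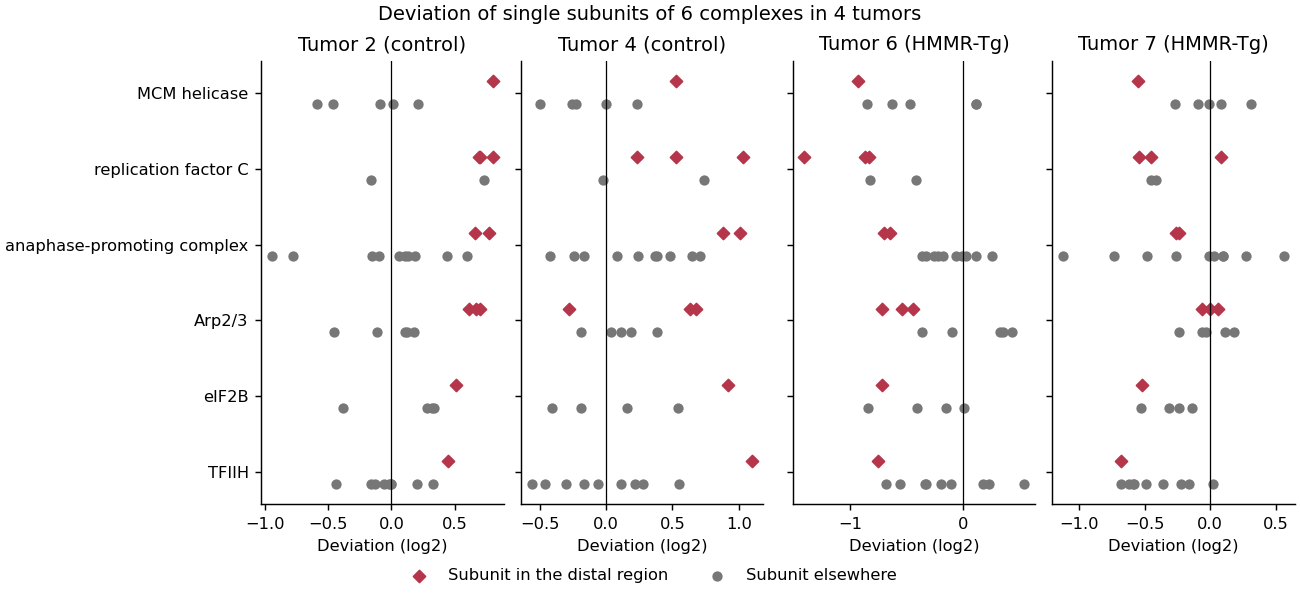
Deviation from the other tumors (log2) of each subunit of 6 complexes in tumors 2, 4, 6 and 7, with 11 subunits encoded in the distal region as diamonds and 35 encoded elsewhere as circles. In tumor 2 the diamonds lie between 0.45 and 0.80, and in tumor 6 between -1.41 and -0.44.

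Single complexes showed how uneven the subunits were. In the MCM helicase, the ring that unwinds DNA at the replication fork, Mcm7 deviated by 0.80 in tumor 2 and -0.93 in tumor 6. Mcm2, Mcm3, Mcm4, Mcm5 and Mcm6, all on other chromosomes, lay between -0.59 and 0.21 in tumor 2. In tumor 6 these partners lay between -0.85 (Mcm4) and 0.11. Mcm4 lies on chromosome 16, whose 446 tested genes had a median deviation of -0.66 in tumor 6. All 6 MCM genes were high in tumor 5, from 0.44 for Mcm7 to 0.95 for Mcm4, so in tumor 5 the distal gene stood less far above the other tumors than any partner did. In replication factor C, the distal Rfc2, Rfc3 and Rfc5 deviated by 0.80, 0.70 and 0.69 in tumor 2. Rfc4, on chromosome 16, was also high there, at 0.73, and Rfc1 was at -0.16. Rfc1 lies on chromosome 5 at 65.7 Mb, inside the high stretch of tumor 4, and deviated by 0.74 in that tumor.

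Rfc3, the last member, was at 62.5, 96.9, 61.0 and 72.3 TPM in control and at 84.4, 26.2, 66.1 and 62.2 TPM in HMMR-Tg tumors. Rfc5 was at 42.0, 65.7, 35.0 and 81.0 TPM in control and at 51.3, 24.9, 30.7 and 37.6 TPM in HMMR-Tg tumors. Tumor 6 had the lowest level of both. Anapc7, a subunit of the anaphase-promoting complex, was at 40.4, 60.4, 36.9 and 74.9 TPM in control and at 32.3, 25.9, 34.7 and 34.5 TPM in HMMR-Tg tumors, without overlap. Its partner Anapc4 lies on chromosome 5 at 53.2 Mb, before the stretches described here, and deviated by -0.15, -0.17, -0.26 and -0.26 in tumors 2, 4, 6 and 7.

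The Arp2/3 complex has 3 subunits in the region. Arpc3 was at 317, 519, 328 and 520 TPM in control and at 244, 264, 333 and 332 TPM in HMMR-Tg tumors, and Arpc1a at 152, 225, 133 and 215 TPM and at 136, 94.3, 147 and 116 TPM. Both were high in tumors 2 and 4. Arpc1b, next to Arpc1a on the chromosome, was at 961, 1572, 1214 and 916 TPM in control and at 1231, 786, 1129 and 1070 TPM in HMMR-Tg tumors, and tumor 4 had its lowest control level. Arpc2, a core subunit of the same complex on chromosome 1, stayed between 463 and 552 TPM in all 8 tumors. Eif2b1, a subunit of the translation factor eIF2B, was at 63.5, 76.4, 50.2 and 98.6 TPM in control and at 42.2, 35.8, 40.4 and 64.4 TPM in HMMR-Tg tumors. Its partner Eif2b4, on chromosome 5 at 31.5 Mb, stayed between 31.8 and 45.6 TPM. Gtf2h3, the TFIIH subunit named above, deviated by 1.10 in tumor 4, and its partners elsewhere in the genome lay between -0.56 and 0.55 there.

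A minority of members went against their tumor. Among the 402 members with a mean of at least 5 TPM, 44 were below the other tumors in tumor 4, 22 of them by more than 0.5, and 23 were above them in tumor 6, 5 of them by more than 0.5. In tumor 7, 99 went against the shift. Hspb8, a small heat shock protein, was at 79.6, 70, 99.1 and 4.95 TPM in control and at 62.6, 22.4, 17.4 and 76.0 TPM in HMMR-Tg tumors, so that tumor 4 was the lowest of all. Stx1a, a syntaxin of vesicle fusion, was at 20.6, 7.17, 31.9 and 1.59 TPM in control and at 27.1, 13.7, 8.76 and 11.1 TPM in HMMR-Tg tumors. Pilra, an inhibitory receptor of myeloid cells, was at 3.14 TPM in tumor 4, at 22.4 TPM at most in the other control tumors, and at 18.8, 25.6, 29.8 and 21.0 TPM in HMMR-Tg tumors. For Pilra, tumor 4 was the lowest of all and tumor 6 the second highest, the reverse of most members. The summed leukocyte markers were also lowest in tumor 4, at 175 TPM, and their part in the level of Pilra was not tested. Ncf1, a subunit of the phagocyte oxidase, was at 17.1, 38.2, 22.2 and 12.1 TPM in control and at 28.2, 30.1, 50.4 and 13.9 TPM in HMMR-Tg tumors, likewise lowest in tumor 4.

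Other members moved with their tumor by far more than the region did. Tgfbr3, the type III receptor for TGF-β, was at 28.7, 11.3, 3.12 and 102 TPM in control and at 3.02, 2.03, 3.67 and 28.6 TPM in HMMR-Tg tumors, the most extreme member in both tumor 4 and tumor 6. Trpv4, a cation channel, was at 41.1, 31.9, 74.7 and 56.4 TPM in control and at 61.7, 7.86, 3.45 and 68.8 TPM in HMMR-Tg tumors, low in tumors 6 and 7 only. Hspb1, a small heat shock protein, was at 178, 444, 610 and 201 TPM in control and at 315, 64.8, 154 and 397 TPM in HMMR-Tg tumors. In Hspb1, tumor 6 was lowest while tumor 4 was not high. Cds1, an enzyme of phospholipid synthesis, was at 11.9, 9.66, 1.38 and 25.5 TPM in control and at 1.31, 7.52, 10.6 and 1.12 TPM in HMMR-Tg tumors. Rflna was at 9.27, 9.29, 1.82 and 23.9 TPM in control and at 1.62, 1.15, 1.44 and 31.5 TPM in HMMR-Tg tumors, with tumor 8 above tumor 4. In tumor 6, the members farthest against the shift were the pseudogene Gm13841 at 448 TPM, Pilra and the zinc finger gene Zfp951 at 12.7 TPM, which deviated by 0.85, 0.73 and 0.65. Processed pseudogenes can share reads with their parent genes, so the value of Gm13841 is uncertain.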

How the data were processed

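RNA from 8 bulk tumors was quantified by the authors, who deposited gene-level TPM on mm9. The methods describe TRIzol, single-end reads, Kallisto and tximport, while the labels name RNeasy and TruSeq, and STAR 2.4.0f1, bedtools and SAMtools 0.1.18 stand in the processing notes of the submitters. Which route made the table is not settled, and reads of near-identical genes may be handled differently by each. TPM keeps no depth, so no counting interval could be given. Columns summed to between 994000.9 and 994984.0, and no column was left out.

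Genes were placed with GENCODE M1 (mm9) by Ensembl ID, which positioned 25388 of 35539 rows and 13934 of 14835 tested genes, and 42 members took a newer RefSeq symbol. Promoters were read from mm9. limma 3.58.1 (R 4.3.3) was fitted on log2(TPM + 1) where the mean reached 1 TPM, two-sided, with trend and Benjamini-Hochberg adjustment over all 14835 genes, and was tested on simulated data. Steps were placed by least-squares segmentation with at least 15 genes a segment. Other steps used scipy 1.17.1, numpy 2.4.6 and pandas 2.3.3 under Python 3.11.15, with plots from matplotlib 3.10.9.

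The members and lists were chosen with earlier results of these data known. Named genes were the 4 most abundant members of each list, the 10 smallest p among named members without overlap, the 3 farthest with and against the shift of tumors 4 and 6 (mean of at least 5 TPM), genes at steps, and complex subunits, and a few items that these rules select are not reported here. Symbols left out by the rule begin with Cldn, Oas, Fzd, Nduf, Cox or Rpl, and include Brca2, Flt1 and Spp1. Alternatives were other pseudocounts, filters, scalings, moderation, references, bin widths, position cuts and leaving out tumors.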

Additional observations from a re-analysis of the deposited data

Results flagged for a closer look

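The values of 69 named members were searched for a tumor set apart from the other 3 tumors of its genotype, by a gap to the nearest of them that passed the Dixon limit for 4 values. The same was done for the regional medians of each genotype, and TPM entered as log2(TPM + 1). Of 140 sets of 4 values in all, 6 were set apart, all of them single members. Chance alone sets apart about 1 in 20 sets that were not picked by their values. Some members, among them Hspb8 and Rflna, were named for an extreme value in tumor 4, so that rate does not hold for them.

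In control tumors, Lrrc8b reached 41.8 TPM in tumor 4, where the others were between 10.8 and 13.4 TPM. The pseudogene Gm10196 reached 2.73 TPM in tumor 2, where the others were between 1.15 and 1.27 TPM. Hspb8 was at 4.95 TPM in tumor 4, below the others at 70 to 99.1 TPM. In HMMR-Tg tumors, all 3 sets had tumor 8 as the highest. Aldh2 was at 434 TPM there against 256 to 273 TPM, Ppp1cc at 292 TPM against 195 to 197 TPM, and Rflna at 31.5 TPM against 1.15 to 1.62 TPM.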

How the results depend on the processing

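The regional medians of tumors 2, 4, 5, 6 and 7 and the median differences of the members and of each list kept their sign under every alternative. The regional medians of tumors 1, 3 and 8, close to 0, did not: leaving out single tumors gave -0.10 to 0.10 in tumor 1, -0.14 to 0.05 in tumor 3 and -0.10 to 0.10 in tumor 8, and quantile normalization gave 0.05 in tumor 1. The median difference of all genes, also close to 0, changed sign as well. A kept sign did not mean a kept size. Leaving out single tumors gave regional medians of -0.39 to -0.19 in tumor 7 and -0.22 to -0.05 in tumor 5. In both, the value nearest 0 came without tumor 4. Without tumors 4 and 6, the median difference was -0.01 for actin cytoskeleton and adhesion and -0.14 for chromatin and transcription. The other lists lay between -0.36 and -0.16 in that setting. The median difference between genotypes over the members lay between -0.50 and -0.36 under the other pseudocounts, filters, scalings, moderation and position cut, and between -0.56 and -0.32 when single tumors were left out. Quantile normalization gave regional medians of 0.71 in tumor 4 and -0.48 in tumor 6, and median-of-ratios scaling 0.70 and -0.50. Adjusted p of the 10 members described first lay between 0.451 and 1 over all alternatives.

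Counts depended on single tumors. Leaving out each in turn, members lower at an unadjusted p under 0.05 ranged from 25 to 133 and members higher from 0 to 6, while members lower without overlap ranged from 37 to 101 and members higher without overlap from 0 to 4. Fewer tumors make non-overlap easier to reach. Without tumors 4 and 6, 7 members were lower and 1 higher at an unadjusted p under 0.05, and 4 were higher without overlap. Without tumors 1 and 6, 30 were lower at an unadjusted p under 0.05, 69 lower without overlap and 1 higher without overlap. Both pairs were chosen after the data were seen. Shares over all genes were not computed with tumors left out, so none of these counts can be set against a background. For the difference of the rest of chromosome 5, leaving out single tumors gave -0.17 to 0.00.

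Edges moved with the method. With bins of 2.5 Mb, the high stretch of tumor 2 ended at 147.5 Mb and the low stretch of tumor 6 began at 105 Mb. Fitted steps put the end of the highest stretch of tumor 4 at 134.7 Mb, the start of that of tumor 5 at 118.4 Mb and the start of that of tumor 6 at 106.3 Mb. With bins of 10 Mb, tumor 5 had no run. The cause was not tested.

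No paired analysis was possible because the labels number the tumors 1 to 4 in one genotype and 5 to 8 in the other, so that no number is shared. Depth is unknown for TPM, so levels near 0 cannot be given a limit of detection.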
